A study of Mus musculus with 9 samples.

Results

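Red pulp fibroblasts (RPF) are the reticular stromal cells that form the meshwork of the splenic red pulp, where macrophages clear senescent red cells and recycle their iron. Fibroblasts supply these macrophages with growth factors such as CSF1, and macrophages and fibroblasts are known to depend on each other in several tissues. The comparison described here is that of sorted RPF from spleens depleted of CD64-expressing cells with sorted RPF from steady-state spleens. It uses 6 of the 9 libraries of the series, 3 per group; the other libraries, from lymph node fibroblastic reticular cells, entered the statistical fit but are not described.

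All mice were 4 months old and carried the same 3 alleles. Wt1CreERT2 is an inducible Cre recombinase driven by Wt1, RosatdTomato makes cells fluoresce once Cre has acted, and CD64DTR puts the diphtheria toxin receptor on cells that express CD64, the high-affinity IgG receptor of macrophages (gene Fcgr1). The depleted group received diphtheria toxin and the steady-state group was untreated, so effects of the toxin itself and of the loss of CD64+ cells cannot be told apart. Neither the dose of toxin nor the interval to sampling was stated in the labels. Each library pooled 2 mice, and 45000 tdTomato+ RPF per group were sorted from 6 spleens after removal of CD45+ cells and staining for CD45, gp38, CD31 and VCAM1. The p-values measure the spread between pools over all 9 libraries of the fit, and not between RPF pools alone. The labels count 12 mice for 3 groups of 6, lymph nodes included, so lymph node libraries share mice with steady-state RPF libraries, although the fit treats all 9 as separate. In such bulk libraries, fewer cells of a type and less RNA per cell cannot be told apart.

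The 6 libraries held between 25414645 and 42306524 counts on genes. Values are given as CPM, the usual depth-normalised count, on library sizes scaled by the trimmed mean of M values, in the order of libraries 1, 2 and 3 of each group. The log2 fold change of depleted over steady state follows with its standard error (SE). The SE was back-calculated from the log2 fold change and the F statistic of the test, so it also carries the spread of the lymph node pools. Of 15103 genes tested with edgeR's quasi-likelihood test, 1671 (11.1%) were higher and 1505 (9.96%) lower after depletion at a Benjamini-Hochberg adjusted p under 0.05, or 21% in either direction. Without steady-state library 2, 968 were lower, and DESeq2 called 2319 lower. The fit of the 6 RPF libraries alone gave 2002 higher and 1778 lower. The median log2 fold change over these genes was -0.09. It depended on the level of the gene. It was -0.53 for the 2953 genes that averaged under 1 CPM, -0.51 for the 3795 genes between 1 and 10 CPM, 0.03 for the 6582 genes between 10 and 100 CPM and 0.30 for the 1773 genes from 100 CPM. In this last class, 38.8% were called higher and 17.2% lower, and between 10 and 100 CPM 13.2% and 12.2%. Medians and counts of gene lists below are read against these values.

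Markers of several other cell types moved with depletion. A list of 17 red pulp macrophage markers was taken without Vcam1 and Hmox1, which RPF themselves express. Of the full list, 1 marker was absent from the deposited counts. The 17 markers made up 0.0376 to 0.0459% of counts at steady state and 0.00853 to 0.0127% after depletion. C1qa, Cd5l, Adgre1 and Fcgr1 had no count in any depleted library. Endothelial markers made up 0.0854 to 0.0918% and 0.0354 to 0.0554% of counts, with Emcn and Lyve1 at 0 in every depleted library. Neutrophil markers made up 0.00563 to 0.0422% and 0.000255 to 0.00511%, B and plasma cell markers 0.0131 to 0.0277% and 0.00206 to 0.00488%, and T and NK cell markers 0.000271 to 0.000405% and 9.96e-05 to 0.0002%. Pericyte and smooth muscle markers went the other way, from 0.179 to 0.215% up to 0.511 to 0.768%. Of the 11 tested genes of this list 5 were higher and 2 lower. The smooth muscle actin gene Acta2 rose from a mean of 255 to 3536 CPM, and its part in this share was not tested. The 8 genes of this list that averaged at least 10 CPM had a median log2 fold change of 0.99, with 2 below 0. Near the floor, Rgs5 (0.138 against 0.111 CPM) and Cspg4 (0.452 against 0.0239 CPM) had low means in both groups. The identity and sort markers of RPF themselves made up 3.27 to 3.50% of counts at steady state and 1.93 to 2.14% after depletion, with 5 of 13 tested genes lower and 2 higher. In each of these lists the 3 depleted libraries lay apart from the 3 steady-state libraries. The exact two-sided permutation test gave p = 0.1 for each, the smallest p that 3 against 3 allows. Of single genes, 0 of 8 tested neutrophil markers and 0 of 3 T and NK cell markers were called. Megakaryocyte and platelet markers also lay apart, at 0.00258 to 0.00337% and 0.00419 to 0.00532%. Erythroid markers overlapped, at 0.052 to 0.131% and 0.0594 to 0.101%, as did mesothelium and Schwann cell markers. The part of these lists in the gene results was not tested. The sort gene Wt1 stood at 64.9, 61.6 and 59.9 CPM at steady state and at 36.8, 39.3 and 26.9 CPM after depletion (log2 fold change -0.86, SE 0.54, adjusted p = 0.324). Its groups did not overlap, and its SE and adjusted p come from the fit that includes the lymph node libraries. Transcripts of Pdpn, which encodes gp38, were at or under 0.197 CPM in all 6 libraries. Steady-state library 1 had 1 count over 4 Y-linked genes, against 2285 to 6101 in the other RPF libraries.

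To describe the response beyond inflammatory genes, 39 lists of transporters, signalling genes, transcription factors and metabolic enzymes were examined. Together they held 1369 tested genes, of which 215 were higher and 211 lower, with a median log2 fold change of -0.12. Fatty acid oxidation, glycogen storage and xenobiotic enzymes leaned to lower values. The bZIP factors, nucleotide metabolism, metal handling and Toll-like receptor signalling leaned to higher values. The chart of calls by list shows these shares beside those of all tested genes, which were not matched to the lists by level.

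**Figure D1:**
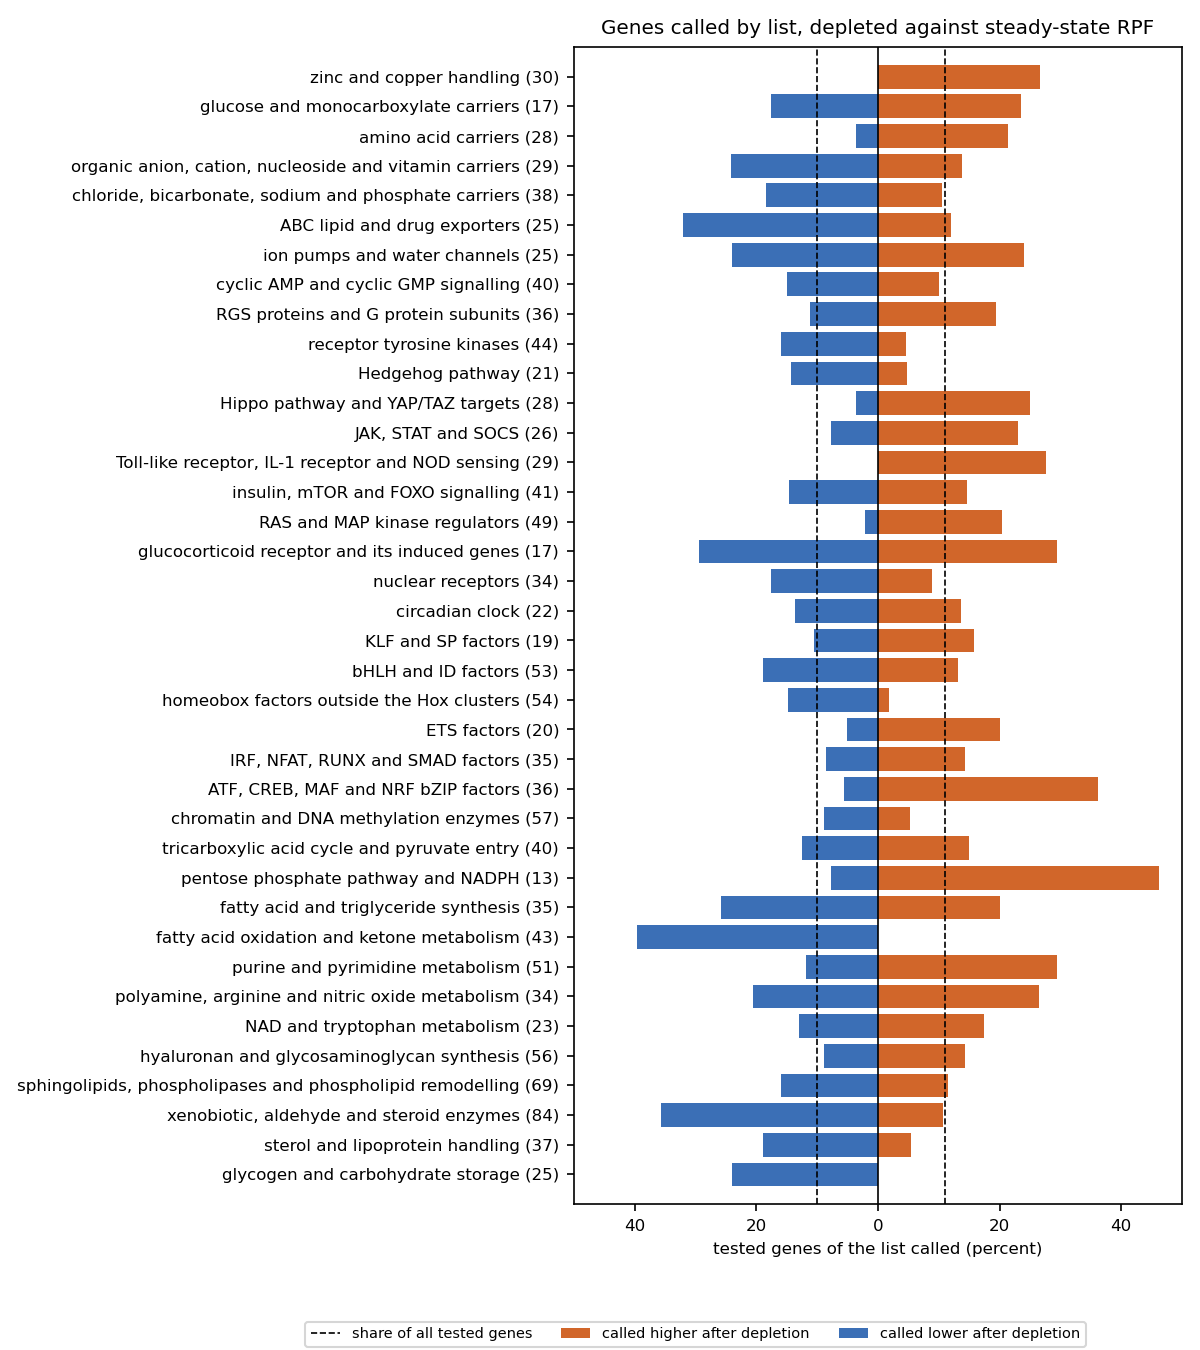
Share of the tested genes of each list shown (number in brackets) that was called higher (orange, to the right) or lower (blue, to the left) after depletion, in percent, with dashed lines at the shares over all tested genes (11.1% higher, 9.96% lower). No gene of fatty acid oxidation and ketone metabolism or of glycogen storage was called higher, and none of zinc and copper handling or of Toll-like receptor, IL-1 receptor and NOD sensing was called lower.

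Of 30 tested genes that bind and move zinc and copper, 8 were higher after depletion. Metallothioneins are small cysteine-rich proteins that buffer zinc and copper, and their genes are switched on through metal response elements bound by the factor MTF1. The neighbouring genes Mt2 (ENSMUSG00000031762, chr8:94172664-94173568) and Mt1 (ENSMUSG00000031765, chr8:94179082-94180327; mm10) both rose. Stretches upstream of their transcription starts are printed here from RefSeq (GRCm38.p6, + strand, chr8:94172368-94172604 and chr8:94179036-94179088), with capitals at each match to the core TGCNCNC on either strand.
Mt2: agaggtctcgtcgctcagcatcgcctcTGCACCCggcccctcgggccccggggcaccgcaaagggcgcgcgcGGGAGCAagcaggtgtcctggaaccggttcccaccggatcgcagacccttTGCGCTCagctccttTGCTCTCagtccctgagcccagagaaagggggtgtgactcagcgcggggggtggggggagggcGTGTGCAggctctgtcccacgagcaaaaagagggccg
Mt1: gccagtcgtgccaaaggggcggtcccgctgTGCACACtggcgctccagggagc
The stretch of Mt2 holds 5 matches and that of Mt1 holds 1. The core is short and 64.15% of the 10770 tested genes with a RefSeq promoter window hold it, so a match describes the letters and not a bound site.

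Mt2 rose from 2.68, 2.78 and 3.7 CPM to 113, 50.7 and 41.4 CPM (log2 fold change 4.49, SE 0.45, adjusted p = 0.000223), and Mt1 from 76.4, 63.3 and 76.5 CPM to 588, 318 and 270 CPM (2.44, SE 0.34, adjusted p = 0.00121). Depleted library 1 was the highest for both genes, and the groups did not overlap. Steap4, a metalloreductase that reduces iron and copper, went from 14.3, 7.96 and 3.14 CPM to 261, 187 and 98.6 CPM (4.42, SE 0.56, adjusted p = 0.000663). Its relative Steap2 rose from a mean of 2.11 to 15.8 CPM (2.89, SE 0.44). Of the zinc importers, Slc39a6 rose from 26.9 ± 4.07 to 63.9 ± 5.4 CPM (SD, n = 3), and the zinc exporter of the secretory pathway Slc30a7 from 59.3 ± 5.24 to 99.5 ± 3.63 CPM. In this list 0 were lower, and the median was 0.54. At an unadjusted p under 0.05, 3 were lower. By DESeq2 2 were, by limma-voom 0, and without steady-state library 3 the count was 1.

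Nutrient carriers were divided by substrate. Among glucose and monocarboxylate carriers, the glucose transporter Slc2a1 rose from 155, 153 and 141 CPM to 575, 294 and 296 CPM (1.38, SE 0.26, adjusted p = 0.0058) and the lactate exporter Slc16a3 from 7.32, 8.07 and 9.66 CPM to 58, 31.9 and 29 CPM (2.25, SE 0.35, adjusted p = 0.0021). Depleted library 1 again stood above libraries 2 and 3. Slc2a8, an intracellular hexose transporter, fell from 34.2 ± 3.74 to 8.81 ± 2.85 CPM (SD, n = 3). In this list of 17 genes, 4 were higher and 3 lower, and these counts fell to 2 higher without steady-state library 1, steady-state library 3 or depleted library 1, and to 1 lower without steady-state library 3 or depleted library 2.

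Of 28 amino acid carriers, 6 were higher and 1 lower (median 0.37). By DESeq2 3 were lower, in the fit of the 6 RPF libraries alone 2, and by limma-voom 0, a count of 0 that was also found without steady-state library 1, depleted library 2 or depleted library 3. Slc7a1, the cationic amino acid transporter CAT1 that imports arginine and lysine (ENSMUSG00000041313, chr5:148327410-148399904), rose from 33.2, 28.3 and 33.8 CPM to 276, 185 and 202 CPM (2.80, SE 0.27, adjusted p = 0.000189). The glutamine importer Slc1a5 rose from 122, 78.5 and 98.6 CPM to 317, 242 and 304 CPM (1.53, SE 0.18, adjusted p = 0.000455). Slc3a2 is the heavy chain that brings several amino acid exchangers to the cell surface, and Slc7a6 is a light chain that pairs with it. Slc3a2 rose from 116 ± 19.9 to 287 ± 36.5 CPM and Slc7a6 from 18.4 ± 6.81 to 87.6 ± 18.1 CPM (SD, n = 3).

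Outside the fixed lists, the largest rise of a solute carrier named here was that of Slc15a3, an endolysosomal transporter of histidine and of small peptides (ENSMUSG00000024737, chr19:10839727-10859362). It stood at 14.7, 9.54 and 12.9 CPM at steady state and at 179, 189 and 241 CPM after depletion (4.04, SE 0.23, adjusted p = 1.74e-05). Like the other genes outside the lists, it was chosen after its values were seen. Over the whole solute carrier family, 36 of 224 tested genes were higher and 32 lower. The lower count fell to between 18 and 20 on leaving out any one of the 6 RPF libraries, and the higher count to between 25 and 30.

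Carriers of organic anions, nucleosides and vitamins leaned downward, with 7 of 29 lower and 4 higher (median -0.33). The count of higher genes was 2 without steady-state library 1, depleted library 1 or depleted library 3, and also with a term for Y-linked reads, and by DESeq2 11 were lower. Slco2b1, an organic anion uptake carrier, fell from 322, 206 and 235 CPM to 27.3, 54.1 and 32.1 CPM (-2.75, SE 0.30, adjusted p = 0.000316). Slc46a1, the proton-coupled folate transporter, which also carries haem, fell from 50.3, 45.9 and 56.3 CPM to 3.99, 6.18 and 13.5 CPM (-2.68, SE 0.48, adjusted p = 0.00427). Splenic macrophages also express both genes, and the fall of the macrophage marker list given above moved with them; its part in these values was not tested. Slc16a9, a carnitine and creatine carrier, fell from 35.5 ± 6.48 to 7.35 ± 4.05 CPM, and the equilibrative nucleoside transporter Slc29a1 from 528 ± 46.3 to 296 ± 16.4 CPM (SD, n = 3). The ascorbate importer Slc23a2 rose from 176 ± 8.55 to 515 ± 117 CPM, and the organic anion carrier Slco3a1 from 248 ± 43.7 to 790 ± 116 CPM.

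Mitochondrial carriers of the Slc25 family split, with 7 of 41 higher and 6 lower. Without any one RPF library the lower count was 2 or 3, the latter without depleted library 2. Slc25a5, an ADP/ATP exchanger of the inner membrane, rose from 209, 181 and 185 CPM to 707, 610 and 656 CPM (1.78, SE 0.14, adjusted p = 7.23e-05). Slc25a3, the phosphate carrier, rose from 209 ± 16.4 to 374 ± 42.4 CPM and Slc25a22, a glutamate carrier, from 29.7 ± 9.33 to 94.7 ± 11.2 CPM (SD, n = 3). The calcium-regulated ATP-Mg and phosphate carriers went in opposite directions. Slc25a25 went from 68.1, 38.3 and 30.2 CPM to 334, 342 and 290 CPM (2.82, SE 0.28, adjusted p = 0.000201), while Slc25a23 went from 32.4, 41.3 and 38.3 CPM to 4.39, 1.27 and 6.09 CPM (-3.25, SE 0.50, adjusted p = 0.00185).

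Pump genes went in both directions. The sodium pump subunit Atp1b2 fell from 168 ± 17.4 to 24.7 ± 1.7 CPM, and Fxyd1, the regulatory protein phospholemman, from 40.2 ± 8.88 to 9.34 ± 0.535 CPM (SD, n = 3). The adjusted p-values of these falls were 4.89e-05 and 0.000305. Atp2a2, the calcium pump of the endoplasmic reticulum, rose from 203 ± 15.1 to 516 ± 101 CPM. Of 25 ion pump and water channel genes, 6 were higher and 6 lower, and the higher count fell to 2 without steady-state library 1 and to 3 without steady-state library 2 or 3 or depleted library 2 or 3.

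Among ion channels and exchangers, the calcium-activated chloride channel Ano1 fell from 198, 260 and 217 CPM to 27.9, 35.8 and 45.8 CPM (-2.63, SE 0.22, adjusted p = 9.64e-05). The phosphate importer Slc20a1 rose from 8.46 ± 1.71 to 34.1 ± 8.93 CPM, and the potassium-chloride cotransporter Slc12a4 from 219 ± 28.5 to 445 ± 41.2 CPM (SD, n = 3). ABC transporters, which export lipids and drugs, were lower in 8 of 25 cases and higher in 3, with a median of -0.94. Leaving out steady-state library 2, steady-state library 3 or depleted library 1 gave 5 lower, and leaving out steady-state library 1 or 2 or depleted library 1 gave 1 higher. Abca9 (ENSMUSG00000041797, chr11:110100749-110168196) fell from 91, 74.2 and 75.9 CPM to 3.68, 7.34 and 3.75 CPM (-4.03, SE 0.32, adjusted p = 8.09e-05), and its relative Abca8a from 14.1, 9.46 and 12.8 CPM to 0.201, 0.162 and 0.0223 CPM (-6.60, SE 0.43, adjusted p = 3.41e-05). These 2 genes belong to a cluster of similar sequences, between which reads may be shared. Abcc1, an exporter of glutathione conjugates, rose from 35.6 ± 10.1 to 125 ± 34.9 CPM.

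**Figure D2:**
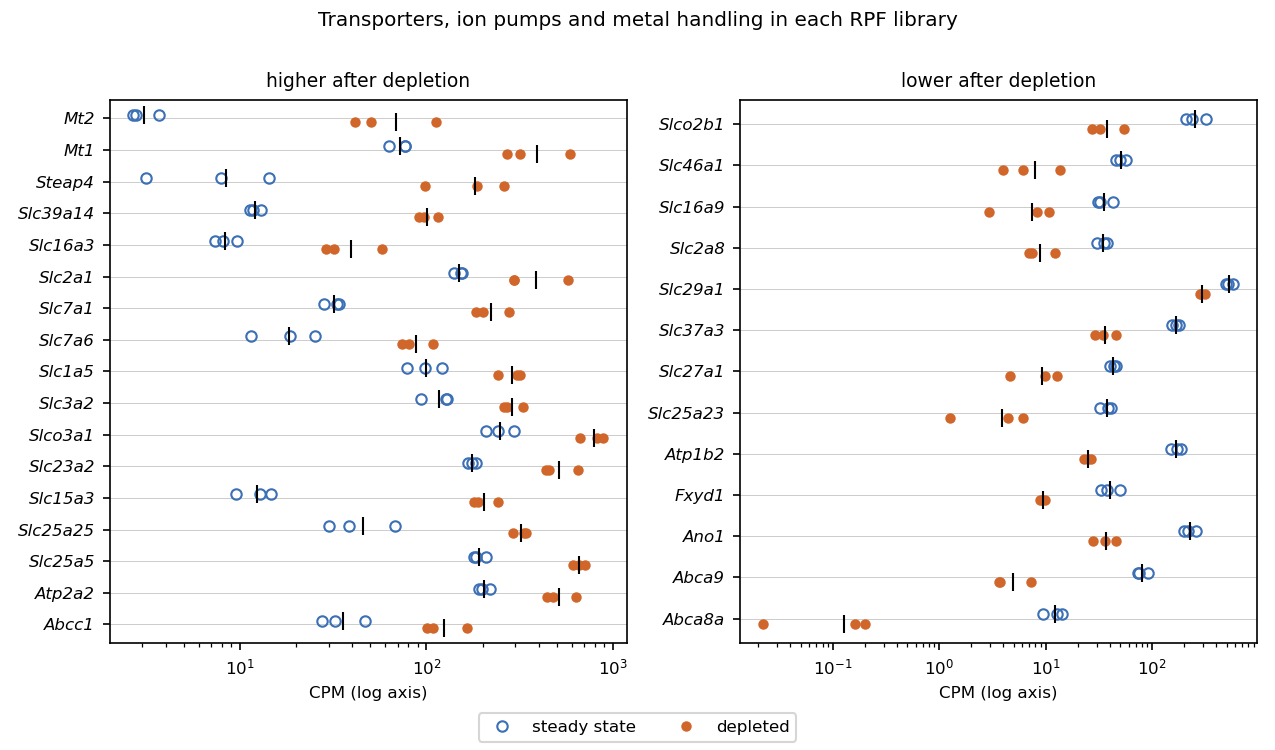
CPM on a log axis for transporters, pumps and metal-handling genes in each steady-state (open blue) and depleted (filled orange) RPF library, with vertical ticks at the group means of 3 libraries. The groups do not overlap for any gene shown, and depleted library 1 is the farthest right for Mt1, Mt2, Slc2a1 and Slc16a3.

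Several receptors for growth factors, hormones and metabolites fell. Receptor tyrosine kinases had 7 of 44 genes lower and 2 higher, and by DESeq2 14 lower and 4 higher. Only 1 was called higher with a term for Y-linked reads and without steady-state library 1, 2 or 3 or depleted library 1. Fgfr4, a receptor for fibroblast growth factors (ENSMUSG00000005320, chr13:55152640-55168759), fell from 303, 252 and 271 CPM to 14.8, 10.1 and 16.7 CPM (-4.31, SE 0.32, adjusted p = 6.14e-05). Fgfr1 fell from 129 ± 11.7 to 67 ± 15.6 CPM, and the ephrin receptor Ephb4 from 226 ± 6.78 to 113 ± 19 CPM (SD, n = 3).

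Lepr, the leptin receptor (ENSMUSG00000057722, chr4:101717404-101815352), fell from 314, 467 and 268 CPM to 31.4, 21.8 and 16.6 CPM (-3.91, SE 0.32, adjusted p = 8.25e-05). Lgr6, a receptor for R-spondins that amplifies Wnt signals, fell from 85, 81.3 and 57.9 CPM to 1.69, 1.38 and 2.68 CPM (-5.28, SE 0.45, adjusted p = 0.000102). Every depleted library lay below every steady-state library for both genes. The succinate receptor Sucnr1 went from a mean of 40.3 to 2.9 CPM (-3.80, SE 0.76, adjusted p = 0.00755) and the lactate receptor Hcar1 from 34.3 to 1.58 CPM (-4.43, SE 1.04, adjusted p = 0.0164). Of ligands, Edn3, which encodes endothelin-3, fell from 537, 633 and 630 CPM to 17.1, 26.9 and 42.1 CPM (-4.39, SE 0.62, adjusted p = 0.00119).

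A few receptors outside the lists went up. Gpr176, an orphan receptor, rose from 7.88, 5.21 and 7.21 CPM to 88.4, 92.3 and 115 CPM (3.87, SE 0.34, adjusted p = 0.000116). Plaur, the urokinase receptor that focuses plasminogen activation on the cell surface (ENSMUSG00000046223, chr7:24462484-24475968), rose from 16.3, 11.9 and 11.1 CPM to 760, 488 and 556 CPM (5.52, SE 0.27, adjusted p = 8.47e-06). Tnfrsf12a, the receptor for the cytokine TWEAK, rose from 26, 11.4 and 7.81 CPM to 570, 494 and 438 CPM (5.05, SE 0.43, adjusted p = 0.000103). In the orphan and adhesion G protein-coupled receptor family, 8 of 49 tested genes were lower and 4 higher, and the higher count was 1 without steady-state library 1 or 2 and 2 without steady-state library 3 or depleted library 1 and with a term for Y-linked reads.

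Behind the receptors, genes of cyclic nucleotide signalling were lower in 6 of 40 cases and higher in 4. Over all tested genes, 9.96% were lower and 11.1% higher. Without steady-state library 2, 3 genes of this list were lower, and by DESeq2 or limma-voom 10 were. Single genes are given as examples in both directions. Gucy1a1, a subunit of the guanylate cyclase that senses nitric oxide, fell from 801, 738 and 767 CPM to 120, 181 and 231 CPM (-2.12, SE 0.28, adjusted p = 0.000928). Npr2, the receptor for C-type natriuretic peptide, which also makes cyclic GMP, fell from 93.1 ± 14 to 33 ± 5.08 CPM, and the adenylate cyclase Adcy5 from 12 ± 0.54 to 2.85 ± 0.619 CPM (SD, n = 3). Pde4b, which breaks down cyclic AMP, rose from 24.7, 40.7 and 25.3 CPM to 198, 147 and 131 CPM (2.39, SE 0.24, adjusted p = 0.000234).

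Gnai1, an inhibitory alpha subunit, rose from 5.22, 10.4 and 9.33 CPM to 83.6, 84.5 and 94.6 CPM (3.39, SE 0.30, adjusted p = 0.000112), and Rgs16, which shortens the active state of such subunits, from 21, 41.5 and 17.9 CPM to 402, 386 and 347 CPM (3.82, SE 0.31, adjusted p = 8.25e-05). Of the gamma subunits, Gng12 rose from 97.1 ± 5.86 to 243 ± 9.12 CPM, while Gng11 fell from 99.3 ± 11.6 to 24.6 ± 5.54 CPM and Gng7 from 16.9 ± 3.15 to 2.54 ± 1.31 CPM (SD, n = 3). Over 36 tested subunits and RGS proteins, 7 were higher and 4 lower, and 4 were higher without steady-state library 2 or 3 or depleted library 1.

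MAP kinase regulators moved upward in 10 of 49 cases and downward in 1. The lower count was 2 without depleted library 2, by limma-voom, with upper quartile scaling and in the fit of the 6 RPF libraries alone, and 4 by DESeq2. Mapkapk2, the kinase through which p38 stabilises messenger RNAs (ENSMUSG00000016528, chr1:131053700-131097826), rose from 202, 213 and 199 CPM to 939, 864 and 807 CPM (2.09, SE 0.13, adjusted p = 2.39e-05). Map2k3, which activates p38, rose from 131 ± 26.1 to 327 ± 31.4 CPM, and Map3k8, which relays Toll-like receptor signals to ERK, from 11.8 ± 5.74 to 55.5 ± 5.02 CPM (SD, n = 3). Among feedback inhibitors, Spry4 went from 95.4, 51.5 and 66.1 CPM to 290, 341 and 347 CPM (4.59-fold, adjusted p = 0.00046), Spry1 from 97.4 ± 2.21 to 209 ± 34.7 CPM, and the ERK phosphatases Dusp5 from 19.7 ± 4.29 to 70.1 ± 18.8 CPM and Dusp7 from 95.8 ± 11.7 to 245 ± 41.7 CPM. Of 19 tested dual-specificity phosphatases 6 were higher and 0 lower, a count of 0 also found by DESeq2, by limma-voom and at an unadjusted p under 0.05. Errfi1, a cytoplasmic inhibitor of the EGF receptor, rose from 587, 444 and 430 CPM to 4330, 2821 and 4730 CPM (3.02, SE 0.21, adjusted p = 4.89e-05).

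The list of insulin, mTOR and FOXO signalling split evenly, with 6 of 41 higher and 6 lower, or 11 lower by DESeq2. Of the pseudokinases that steer ubiquitin ligases, Trib1 rose from 19.2 ± 4.76 to 187 ± 19.6 CPM and Trib2 from 56.2 ± 8.5 to 224 ± 26.7 CPM (SD, n = 3), and the kinase Sgk1 rose from 28.2 ± 8.44 to 155 ± 49.9 CPM. Pik3ip1, which inhibits the kinase at the membrane, went from 23.1, 24.3 and 34.2 CPM to 3.04, 6.64 and 4.11 CPM (-2.56, SE 0.36, adjusted p = 0.00119), and Sesn1, a stress protein that restrains mTORC1, from 39.8, 43.9 and 45 CPM to 8.9, 5.48 and 7.3 CPM (-2.57, SE 0.26, adjusted p = 0.000238). The regulatory subunits Pik3r1 and Pik3r2 fell from 355 ± 33.3 to 196 ± 2.52 CPM and from 96.4 ± 19.8 to 34.4 ± 7.8 CPM.

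Among genes that sense microbes and IL-1, the adaptor Myd88 and the sensor Nod1 rose. Over 29 genes of Toll-like receptor, IL-1 receptor and NOD sensing, 8 were higher and 0 lower (median 0.59), and 0 were lower at an unadjusted p under 0.05 or by DESeq2 or limma-voom. The higher count was 3 to 5 on leaving out 1 library, lowest without steady-state library 3, and 1 gene was lower without depleted library 2. Myd88, the adaptor shared by most of these receptors, rose from 80.9, 69.2 and 91.9 CPM to 186, 188 and 174 CPM (1.18, SE 0.12, adjusted p = 0.000271), and Nod1, a cytoplasmic sensor of peptidoglycan, from 151, 141 and 124 CPM to 311, 295 and 374 CPM (1.23, SE 0.13, adjusted p = 0.000329). Tlr2 (29.7 ± 13.1 against 49.6 ± 31 CPM, adjusted p = 0.402) and Tlr4 (30.2 ± 11.3 against 46.2 ± 10.9 CPM, adjusted p = 0.465) did not pass the test, and their groups overlapped. In the JAK and STAT list, 6 of 26 were higher and 2 lower. The inhibitor Cish rose from 9.46 ± 1.5 to 32.8 ± 1.45 CPM, and Ptpn2, a phosphatase of JAK kinases, from 39 ± 4.51 to 114 ± 46.6 CPM, whereas Tyk2, a kinase of cytokine receptors, fell from 31.5 ± 9.96 to 5.85 ± 2.82 CPM and Stat5b from 167 ± 14.7 to 88.3 ± 2.55 CPM (SD, n = 3). The kinases Jak1 (adjusted p = 0.646) and Jak2 (adjusted p = 0.504) did not pass the test.

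YAP and TAZ are coactivators that respond to cell tension, and their target Ctgf, a matricellular protein, rose from 58.4, 35.6 and 22.5 CPM to 964, 571 and 655 CPM (4.23, SE 0.57, adjusted p = 0.00094). Their partner Tead1 rose from 21.4 ± 3.78 to 72.7 ± 9.55 CPM (SD, n = 3). Of 28 tested genes of this pathway, 7 were higher and 1 lower (median 0.50). The higher count was 4 with any one RPF library left out and with upper quartile scaling, and the lower count was 0 without steady-state library 1, 2 or 3 or depleted library 2, without a filter on low counts and with a term for Y-linked reads, 2 by limma-voom and 3 by DESeq2.

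Actin dynamics and growth signals reach the genome through serum response factor, which binds CArG boxes. Srf itself (ENSMUSG00000015605, chr17:46546839-46556162) rose from 53.3, 28 and 28 CPM to 198, 189 and 182 CPM (2.38, SE 0.27, adjusted p = 0.000387). Its promoter is printed because the CArG box occurs 2 times before the start (RefSeq, GRCm38.p6, minus strand, chr17:46556185-46556274). The capitals mark both boxes.
Srf: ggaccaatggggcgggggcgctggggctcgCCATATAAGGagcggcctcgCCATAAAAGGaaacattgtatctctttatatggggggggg
A CArG box was found in 1.569% of the 10770 tested genes with a promoter window.

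Myc, which binds E-boxes and drives growth genes (ENSMUSG00000022346, chr15:61985391-61990374), rose from 76, 44.2 and 39.1 CPM to 279, 253 and 232 CPM (2.26, SE 0.24, adjusted p = 0.000301). Mxd4, which competes with MYC for its partner MAX, fell from 99.4, 123 and 97.7 CPM to 45.7, 45.3 and 43.2 CPM (-1.25, SE 0.16, adjusted p = 0.000619). The oxygen-regulated factor Hif1a rose from 121, 128 and 94.6 CPM to 614, 364 and 372 CPM (1.97, SE 0.28, adjusted p = 0.00117). ID proteins, which block bHLH factors, split. Id3 rose from 545 ± 44.5 to 1018 ± 123 CPM and Id2 from 148 ± 9.83 to 253 ± 22.3 CPM, whereas Id4 fell from 162 ± 23.1 to 57.6 ± 7.12 CPM (SD, n = 3). Over 53 bHLH and ID genes, 7 were higher and 10 lower. The lower count was 4 without depleted library 2, 5 without steady-state library 1 or 3 and 6 without steady-state library 2 or depleted library 3, and 4 were higher without depleted library 2.

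bZIP factors, which include those of the stress and antioxidant responses, had 13 of 36 genes higher and 2 lower (median 0.40), the latter 4 by DESeq2. The higher count was 8 without a filter on low counts and without steady-state library 1, depleted library 1 or depleted library 3, and 7 without steady-state library 3 or depleted library 2. Maff, a small MAF protein, rose from 5.28, 3.26 and 2.78 CPM to 26.4, 24.1 and 19.5 CPM (2.63, SE 0.29, adjusted p = 0.000369). Creb3l1, a membrane-bound factor that is cleaved to activate secretory and collagen genes, rose from 132, 100 and 134 CPM to 416, 379 and 382 CPM (1.68, SE 0.16, adjusted p = 0.000151). Nfil3, a repressor that opposes the activators of the clock's output genes, rose from 46, 25.6 and 36.7 CPM to 251, 175 and 233 CPM (2.60, SE 0.23, adjusted p = 0.000124), and one of those activators, Tef, fell from 54.3, 56.8 and 66.9 CPM to 23.1, 22.8 and 16.9 CPM (-1.50, SE 0.30, adjusted p = 0.00729).

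Other clock genes gave no common direction, with 3 of 22 higher and 3 lower. The repressor Bhlhe40 rose from 80.2, 92.5 and 92.3 CPM to 649, 480 and 388 CPM (2.52, SE 0.19, adjusted p = 5.68e-05), and the nuclear receptor Rora fell from 32.6 ± 2.8 to 14.9 ± 0.486 CPM (SD, n = 3). The core activators Arntl (49 ± 4.5 against 40.6 ± 11.8 CPM, adjusted p = 0.455) and Clock (43 ± 15.1 against 33.5 ± 16.1 CPM, adjusted p = 0.579) did not pass the test. The labels do not state the time of day of sampling.

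Homeobox factors set positional and tissue identity. Those outside the Hox clusters were lower in 8 of 54 cases and higher in 1 (median -0.55; -0.53 for the 26 that averaged at least 10 CPM), although the lower count was 3 without depleted library 2 or 3, 4 without steady-state library 1 or 3, and 5 without steady-state library 2 and with a term for Y-linked reads. The count of higher genes was 2 by DESeq2. Pknox2 fell from 51.6, 44.2 and 46.7 CPM to 19.9, 18 and 18.4 CPM (-1.34, SE 0.16, adjusted p = 0.000513), and Tshz2 from 26.7 ± 2.29 to 11.9 ± 1.95 CPM (SD, n = 3). Tgif1, a homeobox repressor of TGF-beta signals, rose from 6.94, 6.42 and 6.52 CPM to 23, 21.5 and 24.1 CPM (1.79, SE 0.19, adjusted p = 0.000247). The nuclear factor I genes Nfia and Nfib fell together, from 95 ± 6.48 to 46.6 ± 3.41 CPM and from 72.6 ± 7.27 to 37.7 ± 2.96 CPM. Zfp423, a zinc finger factor of fat cell precursors, fell from 84.5, 50.6 and 40.3 CPM to 16.5, 12.5 and 5.42 CPM (-2.35, SE 0.47, adjusted p = 0.00712), and Zbtb20 from 114, 105 and 142 CPM to 13, 25.2 and 28.1 CPM (-2.44, SE 0.27, adjusted p = 0.000387).

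Runx1, best known from blood formation, rose from 13.8, 13.1 and 5.39 CPM to 91.5, 67 and 55 CPM (2.73, SE 0.43, adjusted p = 0.00219). Irf8, which is known for its role in myeloid cells, was present at 237, 192 and 217 CPM at steady state and at 505, 545 and 516 CPM after depletion (1.28, SE 0.11, adjusted p = 9.97e-05). Beside it, monocyte markers made up 0.036 to 0.0525% of counts at steady state and 0.0518 to 0.066% after depletion, with 1 of 7 tested genes higher and 1 lower. Dendritic cell markers made up 0.0105 to 0.0162% and 0.0102 to 0.015%, with 1 of 3 tested genes higher. The part of such cells in the Irf8 values was not tested. ETS factors rose in 4 of 20 cases, with 1 lower. The lower count was 2 by limma-voom and 0 without a filter on low counts, with a term for Y-linked reads or without any one of steady-state libraries 1, 2 and 3 and depleted libraries 1 and 3. Elk3, a partner of serum response factor, rose from 26 ± 4.89 to 66.2 ± 8.94 CPM, and Ets2 from 32.6 ± 5.6 to 65 ± 8.22 CPM (SD, n = 3). Of nuclear receptors, 6 of 34 were lower and 3 higher, and the lower count was 2 without depleted library 2 or 3 and 3 without any other RPF library. The mineralocorticoid receptor Nr3c2 fell from 36.6, 39.1 and 20.9 CPM to 2.87, 2.62 and 7.99 CPM (-2.84, SE 0.47, adjusted p = 0.00281), and the immediate early receptor Nr4a2 rose from 10.2 ± 2.04 to 41.8 ± 24.5 CPM. Of 57 chromatin and DNA methylation enzymes, 3 were higher and 5 lower. The higher count was 1 without steady-state library 2, and the lower count was 2 or 3 without depleted library 1, steady-state library 1, 2 or 3 and with a term for Y-linked reads, 8 with upper quartile scaling and 9 by DESeq2. Hdac9, a class IIa histone deacetylase, rose from 2.42 ± 0.126 to 17.3 ± 4.33 CPM, and Ezh1, a histone H3 lysine 27 methyltransferase, fell from 102 ± 27.9 to 38.5 ± 11.1 CPM.

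**Figure D3:**
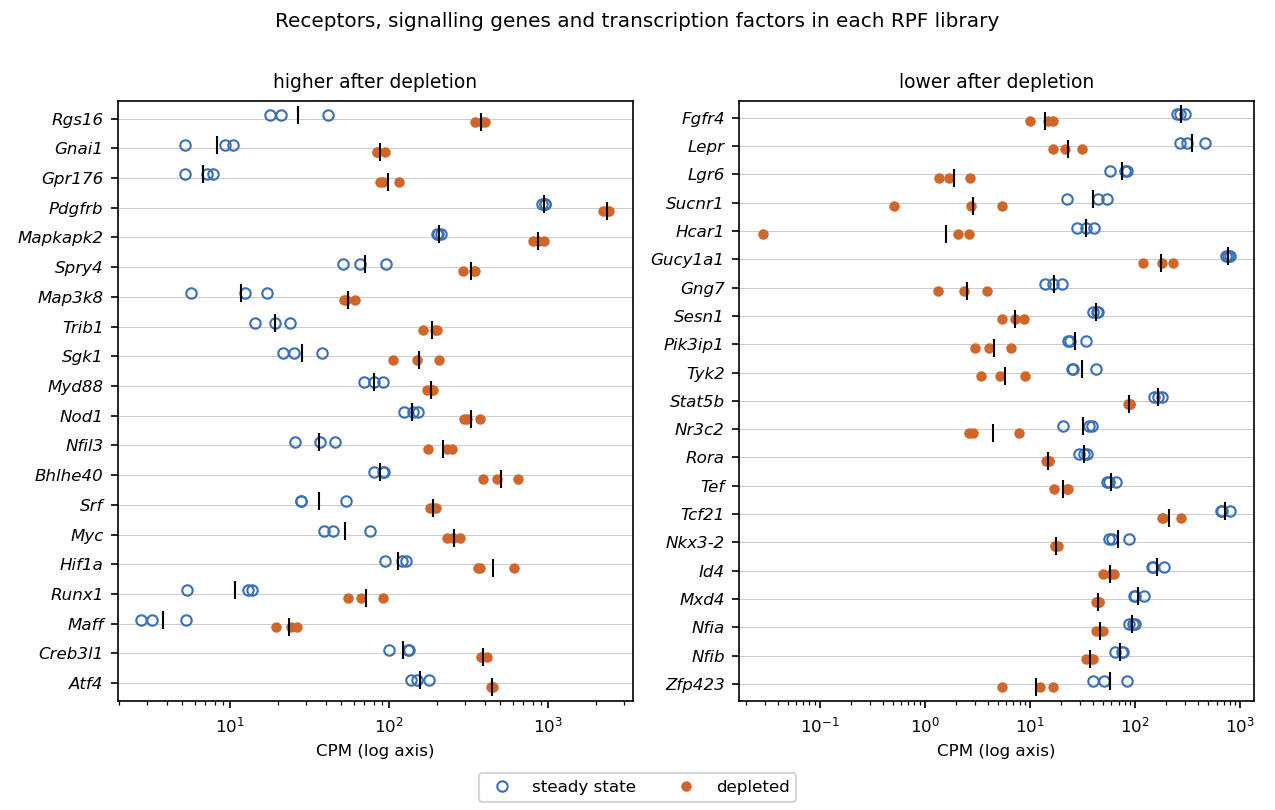
CPM on a log axis for receptors, signalling genes and transcription factors in each steady-state (open blue) and depleted (filled orange) RPF library, with vertical ticks at the group means of 3 libraries. By the ratio of group means, Lgr6, Hcar1, Fgfr4 and Lepr differ most on the right, and no gene shown has overlapping groups.

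Fatty acid oxidation feeds acetyl-CoA to the mitochondria, and many of its genes fell. Of 43 tested genes of fatty acid oxidation and ketone metabolism 17 were lower and 0 higher. A log2 fold change below 0 was found for 38 of them, against 54.1% of all tested genes. The median of the list was -0.78 (-0.87 to -0.60 over the alternatives), and -0.69 for its 35 genes that averaged at least 10 CPM. At an unadjusted p under 0.05, 2 were higher, and by DESeq2 and limma-voom 0. The lower count fell to 9 without steady-state library 1, 8 without steady-state library 2 and 7 without depleted library 1, a fit in which 1 gene was higher. In the mitochondrial spiral, the thiolase Acaa2 fell from 166, 139 and 147 CPM to 43.7, 59.8 and 42 CPM (-1.63, SE 0.17, adjusted p = 0.000279) and the dehydrogenase Hadh from 69.6, 79.8 and 81.5 CPM to 28.7, 40.3 and 28.4 CPM (-1.24, SE 0.19, adjusted p = 0.00196). Peroxisomal enzymes among the genes that fell included Phyh, which begins the breakdown of branched fatty acids, at 76.9 ± 13.2 against 18.2 ± 2.21 CPM, the bifunctional enzyme Hsd17b4 at 112 ± 4.95 against 55.8 ± 5.57 CPM, and the oxidase Acox3 at 40 ± 3.5 against 16.4 ± 4.23 CPM (SD, n = 3). The acyl-CoA dehydrogenases of medium and very long chains, Acadm (34.1 against 19.3 CPM, adjusted p = 0.0863) and Acadvl (56.9 against 45.7 CPM, adjusted p = 0.162), did not pass the test. The fatty acid importer Slc27a1 fell from 43.4, 40.2 and 45.2 CPM to 9.94, 12.8 and 4.66 CPM (-2.23, SE 0.35, adjusted p = 0.00221).

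Lipid synthesis had no common direction, with 7 of 35 genes higher and 9 lower. Leaving out steady-state library 1 or 2 gave 4 lower, and 5 were lower without steady-state library 3 or depleted library 1 and with a term for Y-linked reads. Scd2, a desaturase that makes monounsaturated fatty acids, fell from 142, 162 and 149 CPM to 24, 37 and 39.1 CPM (-2.18, SE 0.26, adjusted p = 0.000485). The acyl-CoA synthetase Acsl4 rose from 60.9 ± 5.51 to 170 ± 72.4 CPM, Acsl5 from 157 ± 8.23 to 377 ± 6.68 CPM, and Agpat5, an acyltransferase of phosphatidic acid synthesis, from 49.2 ± 8.46 to 140 ± 25.8 CPM (SD, n = 3).

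Glycogen genes were lower in 6 of 25 cases and higher in 0, a count of 0 also found by DESeq2, by limma-voom and at an unadjusted p under 0.05. Of the 25, 22 had a log2 fold change below 0, against 54.1% of all tested genes. The median of the list was -0.83, and -0.46 for the 15 genes that averaged at least 10 CPM. The 3 glycogen phosphorylases, which release glucose units from glycogen, all fell. Pygl went from 33.1, 26.6 and 39.8 CPM to 0.0862, 1.78 and 3.41 CPM (-4.22, SE 0.90, adjusted p = 0.0102), Pygb from 109 ± 23.1 to 42.2 ± 14.1 CPM and Pygm from 175 ± 6.17 to 76.2 ± 7.97 CPM (SD, n = 3). Ppp1r3c, which targets a phosphatase to glycogen and so favours its synthesis, fell from 19.2 ± 4.72 to 3.22 ± 0.684 CPM.

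The pentose phosphate pathway, which supplies ribose and NADPH, had 6 of 13 genes higher and 1 lower. Its median was -0.11 over all 13 genes and 0.69 over the 9 that averaged at least 10 CPM. The lower count was 0 without any one of steady-state libraries 1, 2 and 3 and depleted libraries 2 and 3 and with a term for Y-linked reads, and 2 by DESeq2, limma-voom and the fit of the 6 RPF libraries alone. Nadk, which makes NADP from NAD, rose from 176, 150 and 172 CPM to 446, 516 and 450 CPM (2.84-fold, adjusted p = 8.25e-05), and transketolase (Tkt) from 148, 132 and 132 CPM to 286, 268 and 282 CPM (1.02, SE 0.12, adjusted p = 0.000374). H6pd, which makes NADPH inside the endoplasmic reticulum, rose from 1334 ± 122 to 2472 ± 184 CPM (SD, n = 3).

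In the tricarboxylic acid cycle, enzymes of the same reaction went in opposite directions. The mitochondrial malate dehydrogenase Mdh2 rose from 254, 218 and 214 CPM to 548, 540 and 569 CPM (1.27, SE 0.12, adjusted p = 0.000142), and its cytosolic counterpart Mdh1 fell from 180, 171 and 204 CPM to 68.4, 88.8 and 93.1 CPM (-1.15, SE 0.15, adjusted p = 0.000706). Idh3a, a subunit of the NAD-dependent isocitrate dehydrogenase, rose from 56.6 ± 6.53 to 122 ± 15 CPM, whereas the NADP-dependent mitochondrial enzyme Idh2 fell from 181 ± 22.8 to 59.9 ± 4.2 CPM (SD, n = 3). Citrate synthase (Cs) rose from 193 ± 14.7 to 316 ± 40.2 CPM. Pdk2, a kinase that switches off pyruvate dehydrogenase, fell from 48.7, 70.3 and 71.3 CPM to 7.81, 13.6 and 7.05 CPM (-2.74, SE 0.31, adjusted p = 0.000387). Of 40 tested genes, 6 were higher and 5 lower, and 3 were lower without steady-state library 1 or 2 or depleted library 2.

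Nucleotide metabolism leaned upward, with 15 of 51 genes higher and 6 lower (median 0.37; 0.55 for the 40 that averaged at least 10 CPM). Without steady-state library 1, 2 or 3 the higher count was 9 and without depleted library 1 it was 8. Upp1, a uridine phosphorylase of the salvage pathway (ENSMUSG00000020407, chr11:9118103-9136170), went from 1.06, 3.49 and 0.529 CPM to 60.4, 53.9 and 62.4 CPM (5.10, SE 0.94, adjusted p = 0.00483), and the CTP synthase Ctps from 33.5, 31.8 and 13.5 CPM to 289, 252 and 218 CPM (3.26, SE 0.37, adjusted p = 0.00041). Cad, which carries out the first steps of pyrimidine synthesis, rose from 42.1 ± 2.12 to 85.9 ± 6.06 CPM, Adsl, a purine synthesis enzyme, from 50.6 ± 10.8 to 117 ± 10.4 CPM, and the uridine-cytidine kinase Uck2 from 19.3 ± 2.13 to 60.7 ± 12.7 CPM (SD, n = 3). Nt5e (CD73), which makes adenosine outside the cell (ENSMUSG00000032420, chr9:88327197-88372092), fell from 192, 241 and 243 CPM to 35.6, 31.2 and 29.5 CPM (-2.81, SE 0.17, adjusted p = 2.37e-05). Adenosine kinase (Adk) fell from 167 ± 30.5 to 68.9 ± 9.36 CPM, and Dpyd, which degrades uracil and thymine, from 23.8 ± 5.9 to 4.42 ± 2.17 CPM.

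Polyamines are small cations made from arginine and methionine that growing cells need, and 2 enzymes of their synthesis rose. Odc1, the first enzyme of the pathway, rose from 50, 39.2 and 39.3 CPM to 197, 148 and 156 CPM (1.96, SE 0.23, adjusted p = 0.000484), and spermidine synthase (Srm) from 53.3, 32.5 and 52.1 CPM to 292, 246 and 244 CPM (5.67-fold, adjusted p = 0.000889). Sat1, which marks polyamines for export and breakdown, rose from 84.1 ± 12.6 to 291 ± 59.4 CPM, while its relative Sat2 fell from 15.6 ± 0.64 to 3.5 ± 0.95 CPM (SD, n = 3). Gch1, which makes the cofactor of nitric oxide synthases, rose from 3.74 ± 1.06 to 32.2 ± 7.18 CPM. Over 34 genes of polyamine, arginine and nitric oxide metabolism, 9 were higher and 7 lower.

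E-boxes, the sites bound by MYC, were looked for in these promoters because Myc rose. The letters CACGTG occur in 11.49% of the 10770 tested genes with a promoter window. They occur in 3 of the 15 nucleotide genes called higher that have a window (20%), and in 1 of the 7 such polyamine, arginine and nitric oxide genes. That one is Prmt1, an arginine methyltransferase (ENSMUSG00000109324, chr7:44975989-44986568), which rose from 53.8, 37.3 and 45.3 CPM to 118, 113 and 126 CPM (1.39, SE 0.18, adjusted p = 0.000912). Its stretch is shown with the E-box in capitals (RefSeq, GRCm38.p6, minus strand, chr7:44986566-44986631).
Prmt1: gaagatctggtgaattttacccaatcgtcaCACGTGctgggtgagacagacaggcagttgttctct
A match is a description of these letters, and none of these data show what binds there.

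Xenobiotic, aldehyde and steroid enzymes leaned downward. Of 84 tested genes 30 were lower and 9 higher, with a median of -1.22 (-1.31 to -1.07 over the alternatives; -0.96 for the 54 that averaged at least 10 CPM), and 21 to 25 were lower on leaving out 1 RPF library. The cytochrome P450 enzyme Cyp2s1 (ENSMUSG00000040703, chr7:25802475-25816913) fell from 227, 316 and 326 CPM to 21.7, 7.42 and 8.66 CPM (-4.53, SE 0.93, adjusted p = 0.00841). Of the glutathione transferases, which conjugate toxic electrophiles, Gsta4 fell from 27.4, 46.5 and 32.8 CPM to 1.35, 1.4 and 0.424 CPM (-5.07, SE 0.52, adjusted p = 0.00026), Gstm1 from 125 ± 7.68 to 38.4 ± 12.5 CPM and Gstt1 from 314 ± 33.1 to 135 ± 7.58 CPM (SD, n = 3). Gstm1 and Gstt1 have close paralogs, with which reads may be shared. The aldehyde dehydrogenase Aldh2 fell from 666, 646 and 708 CPM to 272, 293 and 190 CPM (-1.42, SE 0.16, adjusted p = 0.000337). Cyp27a1, which makes 27-hydroxycholesterol, fell from 132 ± 25.2 to 23.3 ± 10.3 CPM, and the sulfotransferase Sult1a1 from 86.7 ± 1.71 to 9.59 ± 1.8 CPM.

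Against this direction, Cyp7b1, which hydroxylates oxysterols, rose from 10.8, 3.79 and 8.2 CPM to 59.4, 101 and 57.9 CPM (3.26, SE 0.39, adjusted p = 0.000504). Por, the reductase that feeds electrons to P450 enzymes, rose from 131, 98.9 and 121 CPM to 595, 338 and 297 CPM (1.81, SE 0.26, adjusted p = 0.00131), and the omega-class transferase Gsto1 from 15.7 ± 2.7 to 76.4 ± 11.8 CPM. Abat, which breaks down GABA, fell from 328, 395 and 431 CPM to 53.6, 53.2 and 34.5 CPM (-3.03, SE 0.24, adjusted p = 7.23e-05), and Aox1, an aldehyde oxidase, from 14.5, 21.6 and 15.2 CPM to 0.46, 0.513 and 0.848 CPM (-4.80, SE 0.38, adjusted p = 7.37e-05). Nnmt, which methylates nicotinamide, rose from 37.3 ± 4.05 to 96.5 ± 8.55 CPM, and Naprt, which starts NAD synthesis from nicotinic acid, fell from 26.1 ± 5.57 to 3.85 ± 2.28 CPM (SD, n = 3).

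Sphingolipid and phospholipid enzymes were higher in 8 of 69 cases and lower in 11, and 5 were higher without steady-state library 3. Sphingosine kinase 1 (Sphk1), which makes the lipid signal sphingosine 1-phosphate, rose from 17.3, 17.7 and 15.6 CPM to 185, 117 and 130 CPM (3.09, SE 0.31, adjusted p = 0.000216), and the ceramide synthase Cers6 from 21.2 ± 5.81 to 101 ± 22 CPM. The lipid phosphate phosphatases, which degrade such signals at the cell surface, diverged: Plpp1 (ENSMUSG00000021759, chr13:112800792-112867894) fell from 1737, 1938 and 1481 CPM to 240, 228 and 240 CPM (-2.86, SE 0.13, adjusted p = 8.47e-06) and Plpp3 rose from 18.1 ± 6.03 to 64.1 ± 13.2 CPM. The secreted phospholipase Pla2g5 fell from 49.2 ± 2.14 to 4.59 ± 1.55 CPM (SD, n = 3). In hyaluronan and glycosaminoglycan metabolism, 8 of 56 genes were higher and 5 lower. The higher count was 4 without depleted library 1 or 2 and 5 without steady-state library 2, and the lower count was 3 without steady-state library 2 or 3, 8 in the fit of the 6 RPF libraries alone and 10 by DESeq2 or limma-voom. The hyaluronan receptor Cd44 rose from 105, 103 and 71 CPM to 667, 590 and 537 CPM (2.69, SE 0.17, adjusted p = 2.76e-05) and Tnfaip6, which cross-links hyaluronan, from 7.63 ± 3.07 to 62.1 ± 11.1 CPM. Sterol and lipoprotein genes were lower in 7 of 37 cases and higher in 2, but 1 was higher without depleted library 1 or 3, and 13 were lower by DESeq2 and 11 by limma-voom. Apoe fell from 5437, 5528 and 6239 CPM to 3014, 2955 and 2222 CPM (-1.07, SE 0.14, adjusted p = 0.000794), and Soat1, which esterifies cholesterol for storage, rose from 53.7 ± 5.68 to 133 ± 1.01 CPM. The macrophage marker list given above also fell, and its part in the Apoe values was not tested.

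**Figure D4:**
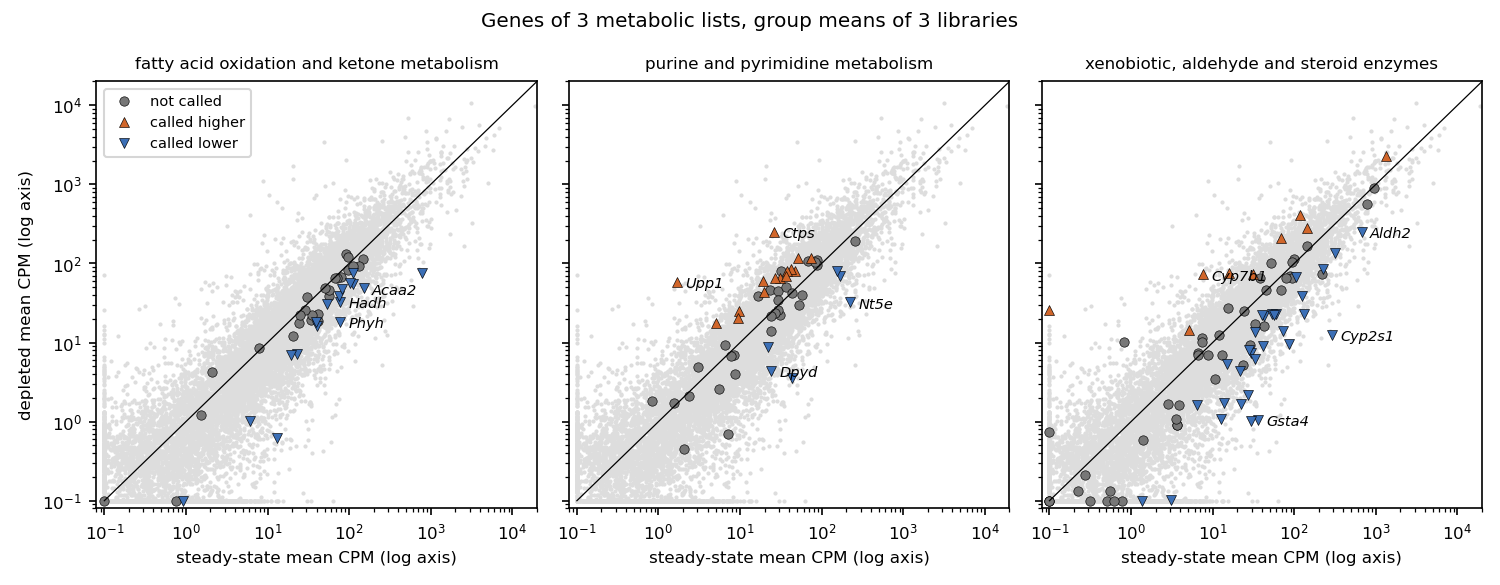
Mean CPM of 3 depleted libraries against that of 3 steady-state libraries, both on log axes, for the genes of 3 metabolic lists (triangles, called higher or lower; grey circles, not called) over all tested genes (light grey dots), with the line of equal means; means under 0.1 CPM are drawn at 0.1. Fatty acid oxidation genes lie on or below the line with few exceptions, nucleotide genes called higher lie above it, and xenobiotic enzymes extend far below it.

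The changes in share of counts were largest for a few abundant genes. Counts also grow with transcript length, so these values rank changes in a library's counts and not in molecules. The 8 genes with the largest rise gained 36136 CPM in all, and the 8 with the largest fall fell by 26277 CPM. Flna, the actin cross-linker filamin A, rose from 3489, 2788 and 3172 CPM to 10004, 10985 and 11111 CPM (1.76, SE 0.15, adjusted p = 9.71e-05). Sdc4, a heparan sulfate proteoglycan of focal adhesions, rose from 570, 460 and 566 CPM to 6109, 6684 and 7711 CPM (3.68, SE 0.25, adjusted p = 4.04e-05), and Tinagl1, a matricellular protein, from 1009, 702 and 883 CPM to 5316, 4313 and 4484 CPM (2.44, SE 0.30, adjusted p = 0.000617). Cyr61, a matricellular target of YAP, rose from 1520 ± 453 to 4678 ± 448 CPM, and the stromelysin Mmp3 from 49.8 ± 22.2 to 3455 ± 1303 CPM (SD, n = 3).

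On the falling side, both Igfbp4 and Kazald1, whose proteins hold domains of the IGF-binding family, were reduced. Igfbp4 went from 4820, 5228 and 4957 CPM to 895, 1168 and 1069 CPM (-2.26, SE 0.12, adjusted p = 9.61e-06), and Kazald1 from 2976, 3106 and 3629 CPM to 276, 393 and 300 CPM (-3.33, SE 0.18, adjusted p = 1.46e-05). Gja1, which encodes the gap junction protein connexin 43, fell from 2251, 2748 and 2031 CPM to 892, 717 and 515 CPM (-1.73, SE 0.21, adjusted p = 0.000609). For 2 of the 8, Slc40a1 and Igfbp7, the call depended on the setting: the adjusted p of Slc40a1 (0.0129) was 0.0537 without depleted library 2 and 0.0654 without a filter on low counts, and that of Igfbp7 (0.0292) was 0.0643 without steady-state library 1, 0.101 without steady-state library 3, 0.1 without depleted library 1 and 0.0794 without depleted library 3. The part of the fall in macrophage markers in the Slc40a1 values was not tested.

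**Figure D5:**
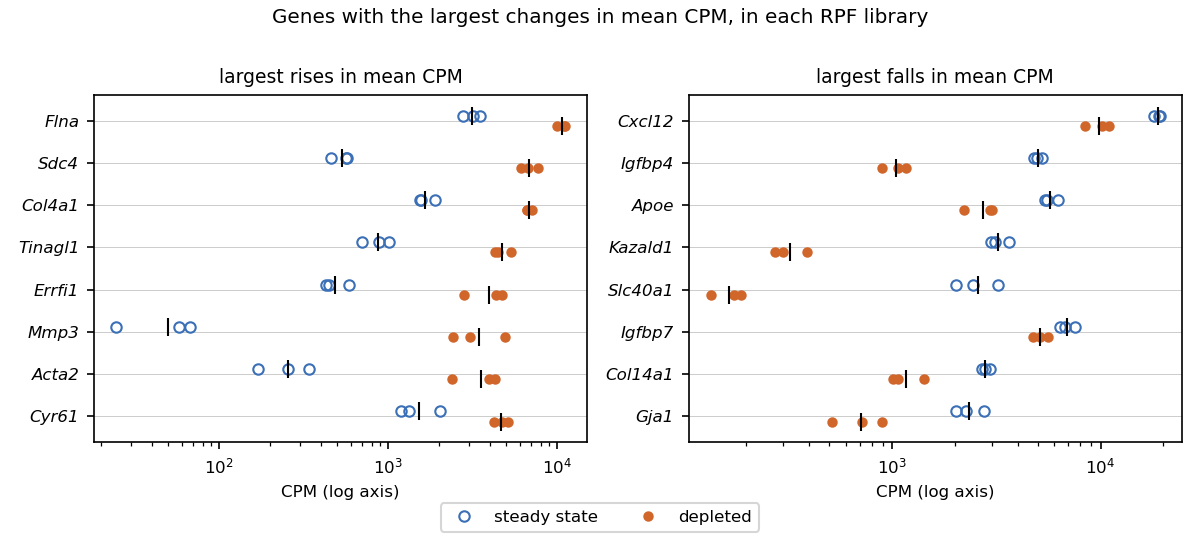
CPM on a log axis for the 8 called genes with the largest rise (left) and the 8 with the largest fall (right) in mean CPM, in each steady-state (open blue) and depleted (filled orange) RPF library, with vertical ticks at the group means. By the ratio of group means, Mmp3 and Acta2 differ most on the left, and Slc40a1 and Kazald1 on the right, where the calls of Slc40a1 and Igfbp7 depended on the setting.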

How the data were processed

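Poly(A) RNA of sorted fibroblasts was sequenced, and the deposited table holds raw counts per gene, which the authors made from reads on mm10; the submitters' processing notes name HTSeq 0.6.1p1, STAR 2.5.3a, cutadapt 1.10 and Bowtie2 2.2.8, but no source states a strand setting, so overlapping antisense genes may share counts. Columns were matched to samples by the library names in the labels. A further 24 columns of per-sample values were not used. The counts of 27370 genes in 9 libraries were analysed, of which 881 had no count. Genes were filtered with filterByExpr, scaled by the trimmed mean of M values and tested with edgeR 4.0.16 (R 4.3.3; quasi-likelihood, robust, 3 group means, 6 residual degrees of freedom, two-sided, Benjamini-Hochberg over 15103 genes); a gene was called at an adjusted p under 0.05. The scripts were tested on simulated data. Alternatives were other scalings, filters and groups of samples, DESeq2 1.42.0, limma-voom (limma 3.58.1), a term for libraries without Y-linked reads, and each library left out.

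The lists and the comparison were chosen with earlier results of these data known. Genes were named by rule. Per list, up to 4 called genes with the largest rise and 4 with the largest fall were taken. These averaged at least 10 CPM in one group, with groups that did not overlap. The 8 with the largest change in CPM in each direction were added, and further list members as examples. Gene models, Y-linked genes, globins and antigen receptor genes were left out, but X-linked genes such as Flna were not. Not every gene so named is described. Genes outside the lists, and most examples, were chosen after their values were seen. Promoter motifs were counted on both strands of RefSeq windows (GRCm38.p6). Some genes and 1 gene list are not reported here.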

Additional observations from a re-analysis of the deposited data

How the results depend on the processing

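The numbers of genes called kept within a factor of 1.5 of the reported values (3176 in either direction, 1671 higher, 1505 lower) under other scalings, filters, limma-voom, the fit of the 6 RPF libraries alone and a term for Y-linked reads. At an adjusted p under 0.01 they were 1680 in either direction, 965 higher, 715 lower and 1373 beyond 2-fold, and over the lists together 126 higher and 107 lower. DESeq2 called 2319 lower. Leaving out 1 RPF library gave 968 to 1148 lower genes, lowest without steady-state library 2, and 139 to 164 lower genes over the lists together; the cause was not tested. Another scaling moved the median log2 fold change of all tested genes from -0.09 to -0.14 (DESeq2's size factors) or -0.19 (upper quartile). Of 335 called genes picked by the naming rule or as examples, 255 were called under each of the 16 alternatives in test, scaling, filter, samples and genes. The other 80 lost the call under at least 1, each of these on leaving out some single library. Most of the 80 are not among the genes described above, where Slc40a1 and Igfbp7 are. None of the 335 changed direction. One of the 16 alternatives, the removal of marker genes of other cells, was chosen after seeing the data. No paired analysis was possible because the labels give no replicate numbers that pair the RPF libraries. With 3 pools per group, differences smaller than the spread between pools were not detectable.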
